A study of Mus musculus with 9 samples.

Results

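The mRNAs of 10 glycolytic enzymes were followed in cortices of single mouse embryos at E12.5. The genes Hk1, Hk2, Gpi1, Pfkp, Aldoa, Tpi1, Gapdh, Pgk1, Pkm and Ldha were chosen by name and matched by symbol to 10 of the 57010 genes in the count table. All 10 had more than 10 reads in every embryo and were among the 13680 genes tested. The study compared 3 control (Ctrl) embryos, given as WT in the labels, with 3 Cnot3 cKO embryos and 3 Cnot3;Trp53 dcKO embryos. The cKO embryos carried Emx1-Cre with both Cnot3 alleles floxed, and in the dcKO embryos both Trp53 alleles were floxed as well. CNOT3 is a subunit of the CCR4-NOT complex, which shortens the poly(A) tails of mRNAs, and Trp53 encodes the transcription factor p53. Emx1-Cre acts in radial glia of the dorsal telencephalon and their progeny, so blood, vessel, meningeal and microglial cells in a cortex keep their floxed alleles. Each library came from 1 embryo.

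Glycolysis breaks glucose down to pyruvate in the cytosol. Hexokinase, phosphofructokinase and pyruvate kinase catalyse its essentially irreversible steps, and lactate dehydrogenase turns pyruvate into lactate while regenerating NAD+. Most steps can be carried out by several isozymes, each encoded by its own gene. Neural progenitors of the early cortex are known for high glycolytic activity, and many of the genes are targets of HIF, the transcription factor induced by low oxygen, and of MYC.

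The libraries held between 21193798 and 45073349 counted reads. Levels are given as CPM, read counts scaled to a common library size with TMM factors. Cnot3 was at 98.2 to 117.3 CPM in Ctrl and 14.6 to 17.3 CPM in cKO, whereas dcKO replicates 1, 2 and 3 had 7.33, 48.2 and 19.0 CPM. Trp53 was at 215 to 254 CPM in Ctrl and at 15.1, 110.4 and 20.6 CPM in the same dcKO embryos, so dcKO replicate 2 kept the most mRNA of both targeted genes. The libraries also differed in how counts depended on the GC content of genes. The slope of the log2 ratio to the Ctrl mean, over all tested genes and per 10 GC points, was between -0.19 and 0.12 in Ctrl and between -0.48 and -0.28 in cKO. It was -1.03 and -1.21 in dcKO replicates 1 and 2 but 0.16 in dcKO replicate 3. For the 10 mRNAs, fold changes with a correction for GC content are therefore given beside the uncorrected ones. Markers of radial glia, neurons and dorsal telencephalon were all detected. Dorsal telencephalon markers (6 genes) summed to 910 to 948 CPM in cKO, below the 1153 to 1762 CPM of Ctrl and the 1031 to 1337 CPM of dcKO. Neuronal markers (10 genes) summed to 1562 to 2035 CPM in Ctrl, 1096 to 1569 CPM in cKO and 927 to 1742 CPM in dcKO, and radial glia markers (12 genes) to 4577 to 5777 CPM over all embryos. In cKO DESeq2 called 2 of 6 dorsal telencephalon markers (Emx1 at -1.85, Lhx2 at -1.19), 2 of 12 radial glia markers (Hes5 at -1.83, Nes at -0.68) and 0 of 10 neuronal markers lower (7.08% of tested genes), and 0 higher. In dcKO it called 1 neuronal marker lower (Mapt at -1.21, beside 7.41% of genes) and 0 higher. Median log2 fold changes in cKO were -0.30 for the dorsal telencephalon, -0.06 for the radial glia and -0.58 for the neuronal markers. With the GC correction the values of these 5 genes were -0.37, -0.55, -0.86, -0.37 and -0.94, and edgeR called 0 of them. The part of these shifts in the results was not tested. The 10 subpallial markers together reached at most 8.50 CPM in any embryo.

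In Ctrl cortices the levels of these mRNAs spanned a wide range. Per kb of exon, Gapdh (glyceraldehyde-3-phosphate dehydrogenase) was the most abundant at 1130 ± 60.7 CPM (SD, n = 3). Pkm (pyruvate kinase) was at 634 ± 26.7, Pgk1 (phosphoglycerate kinase) at 539 ± 82.3 and Ldha (a lactate dehydrogenase subunit) at 415 ± 30.4 CPM per kb. The order of Pgk1 and Ldha depended on the length used, since per kb of the longest coding transcript they were at 663 ± 101 and 757 ± 55.5 CPM, with Pkm at 1300 ± 54.9. Tpi1 (triosephosphate isomerase) was at 349 ± 11.9, Aldoa (aldolase A) at 150 ± 10.4 and Gpi1 (glucose-6-phosphate isomerase) at 84.3 ± 2.38 CPM per kb of exon. The enzymes of the irreversible early steps had the lowest levels. Hk2 (hexokinase 2) was at 17.7 ± 0.812, Hk1 (hexokinase 1) at 7.17 ± 0.226 and Pfkp (the platelet-type phosphofructokinase) at 0.502 ± 0.156 CPM per kb of exon. By CPM, Gapdh ranked 4, Pkm 10 and Pfkp 10581 among the 13680 genes in Ctrl.

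The genes lie on several chromosomes. In the GENCODE M21 annotation of GRCm38, Hk1 spans chr10:62268855-62379908, Hk2 chr6:82725025-82774454, Pfkp chr13:6579768-6648777 and Pgk1 chrX:106187100-106203699. Tpi1 at chr6:124810586-124814296 and Gapdh at chr6:125161715-125166467 share a chromosome, as do Gpi1 at chr7:34201330-34230336 and Ldha at chr7:46841475-46855627. Aldoa is at chr7:126795234-126800751 and Pkm at chr9:59656368-59679375. The GC content of their longest transcripts ran from 48.0% in Pfkp to 57.7% in Pkm, against a median of 49.4% over tested genes. Reads counted on Pgk1-rs7, a processed copy, were 7.54% to 9% of those on Pgk1, so reads of these near-identical sequences may be split between them. The M1 and M2 forms of pyruvate kinase are spliced from the 1 gene Pkm and cannot be told apart in gene counts.

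Because HIF binds DNA at the letters ACGTG or GCGTG, promoter windows of RefSeq (GRCm38.p6, 300 bases around each start site, most of them upstream) were searched for both, on either strand. ACGTG was in a window of 7 of the 10 genes (Hk1, Hk2, Aldoa, Gapdh, Pgk1, Pkm and Ldha) and in 19.6% of all 32851 windows. GCGTG was in a window of 4 (Hk1, Pfkp, Gapdh and Ldha) and in 32.4% of all windows. Genes with several start sites have several windows, so the gene counts and window shares have different bases. The first Ldha window held 5 matches to ACGTG, more than any other window of these genes, with overlapping matches on both strands counted separately. ACGTG also falls within the CACGTG box that MYC proteins bind. The match nearest to the start site on its upstream side is shown for 4 genes described below, on the gene's strand, with the searched letters or their reverse complement in capitals and 9 bases on each side.
Hk2, chr6:82774493-82774515, reverse strand: gagcacatcCACGTcactgtccg
Pfkp, chr13:6648781-6648803, reverse strand: tcgggcgggGCGTGggcggctcc
Pgk1, chrX:106186960-106186982, forward strand: tggaagtagCACGTctcactagt
Ldha, chr7:46845761-46845783, forward strand: gggttcccgCACGTccgctgggc
Such a match is a description of the sequence alone, and no binding was measured in these cortices.

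The comparison of cKO with Ctrl asked which mRNAs differ when Cnot3 is removed. The 10 enzymes did not differ in 1 direction. All 3 cKO embryos lay above all 3 Ctrl embryos for 5 mRNAs (Hk1, Pfkp, Aldoa, Tpi1 and Ldha), a pattern found in 29.2% of tested genes. They lay below all Ctrl embryos for 3 (Hk2, Gapdh and Pkm), found in 28% of tested genes. Gpi1 and Pgk1 overlapped. The median log2 fold change was 0.22 over the 10 mRNAs and 0.01 over all tested genes. In edgeR's model of all 9 embryos 0 of the 10 mRNAs passed an adjusted p-value of 0.05, against 0.0146% of tested genes called higher and 0% called lower. At an unadjusted p under 0.05 edgeR had Pfkp higher (15.3% of genes) and Hk2 lower (11.7% of genes), and DESeq2 called the same pair, Pfkp higher (9.61% of genes) and Hk2 lower (7.08% of genes). When only the 6 Ctrl and cKO embryos were fitted, leaving out the dcKO spread, edgeR called 8 of the 10. Those were the 5 higher mRNAs (24% of genes called higher) and the 3 lower mRNAs (24.2% called lower). By limma with sample quality weights 9 of the 10 passed, beside 27.6% of genes higher and 27.3% lower. In the model of all genotypes without dcKO replicate 1, 2 or 3, edgeR called 1 (Hk2), 2 (Hk2 and Pfkp) and 5 (Hk2, Pfkp, Gapdh, Pkm and Ldha) of the 10. The background of these fits was 7.25%, 11.3% and 14.8% of genes higher and 5.39%, 7.15% and 14.8% lower.

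Among the hexokinases, which trap glucose in the cell as glucose-6-phosphate, the 2 main genes differed in direction. Hk2, the isoform usually induced in proliferating cells, was at 109.7, 107 and 100.3 CPM in the 3 Ctrl embryos and at 57.9, 69.1 and 62.7 CPM in the 3 cKO embryos. No cKO embryo reached a Ctrl embryo. Its log2 fold change was -0.74 (SE 0.15, edgeR adjusted p = 0.0509, DESeq2 adjusted p = 2.88e-04). Hk1, the widely expressed isoform, was at 63.1, 61.0 and 59.3 CPM in Ctrl and at 71.9, 80.2 and 67.6 CPM in cKO. Its log2 fold change was 0.26 (SE 0.26, edgeR adjusted p = 0.549), and all 3 cKO embryos were above Ctrl.

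Gpi1, which converts glucose-6-phosphate to fructose-6-phosphate, was at 526 to 554 CPM in Ctrl and at 537 to 642 CPM in cKO, with a log2 fold change of 0.11 (SE 0.34). The next step, phosphofructokinase, commits the sugar to glycolysis. Pfkp was at 7.30, 4.41 and 8.47 CPM in Ctrl and at 26.1, 25.6 and 19.0 CPM in cKO. This was the largest difference among the 10 mRNAs, 3.5 times the Ctrl mean, and the ranges were far apart. The log2 fold change was 1.81 (SE 0.59, edgeR adjusted p = 0.0902, DESeq2 adjusted p = 0.0147).

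Aldolase splits the 6-carbon sugar, and triosephosphate isomerase interconverts the products. Aldoa was at 450, 458 and 402 CPM in Ctrl and at 587, 755 and 566 CPM in cKO, a log2 fold change of 0.54 (SE 0.44, edgeR adjusted p = 0.457). Tpi1 was at 927 to 992 CPM in Ctrl and at 1076 to 1245 CPM in cKO, a log2 fold change of 0.30 (SE 0.34, edgeR adjusted p = 0.598). Neither range overlapped that of Ctrl.

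The steps that yield NADH and ATP were unequal. Gapdh was at 4818, 4831 and 4390 CPM in Ctrl and at 3103, 3685 and 3064 CPM in cKO, a log2 fold change of -0.51 (SE 0.42, edgeR adjusted p = 0.462). Pkm was at 3192, 3288 and 3024 CPM in Ctrl and at 1773, 1980 and 1782 CPM in cKO, a log2 fold change of -0.78 (SE 0.37, edgeR adjusted p = 0.201). For both mRNAs each cKO embryo was below each Ctrl embryo. Pgk1 was at 1078 to 1421 CPM in Ctrl and at 1272 to 1488 CPM in cKO, with a log2 fold change of 0.18 (SE 0.18). Ldha was at 1312, 1322 and 1491 CPM in Ctrl and at 1854, 1919 and 2026 CPM in cKO. Its log2 fold change was 0.49 (SE 0.26, edgeR adjusted p = 0.256), without overlap. Exact permutation tests of 3 embryos against 3 cannot go below p = 0.1, the value reached by the 8 mRNAs without overlap.

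**Figure D1:**
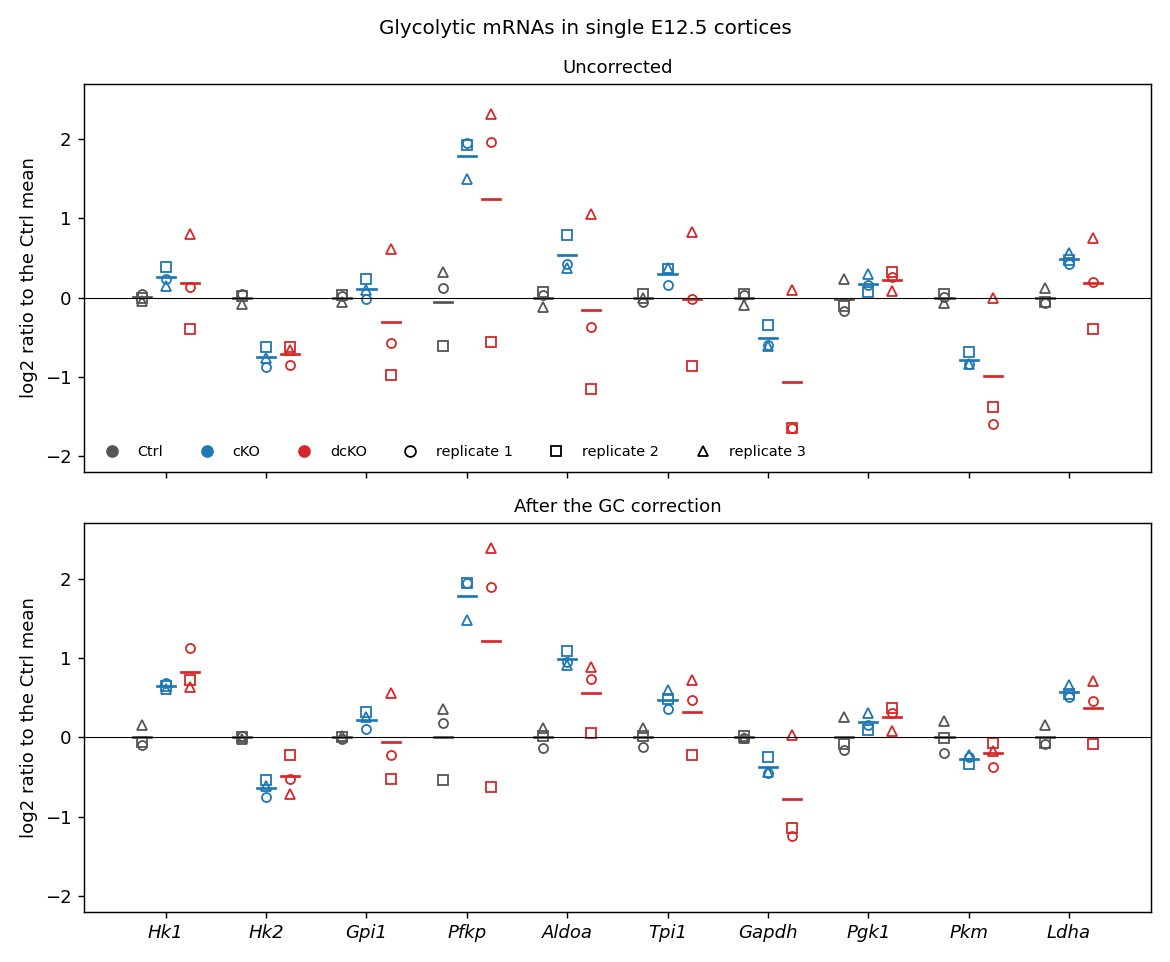
Log2 ratio of each embryo to the mean of the 3 Ctrl embryos for each of the 10 mRNAs, before (top) and after (bottom) the GC correction. Colours give genotypes, symbols replicates and short lines group means. Hk2 lies below Ctrl in all 6 mutant embryos, and the 3 dcKO embryos are spread widely for most other mRNAs, from -1.64 to 0.10 for Gapdh before the correction.

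Correcting each library for its dependence on GC content moved the GC-rich mRNAs the most. In cKO the log2 fold change of Hk1 went from 0.26 to 0.65 (SE 0.15, edgeR adjusted p = 0.0328) and that of Aldoa from 0.54 to 0.98 (SE 0.20, edgeR adjusted p = 0.0265), so both rose in this fit, as did 8.13% of genes. Hk2 fell in it by 0.64 (SE 0.14, edgeR adjusted p = 0.0291), as did 3.74% of genes. Pkm went from -0.78 to -0.28 (SE 0.15, edgeR adjusted p = 0.222). After the correction cKO embryos lay apart from Ctrl above it for 6 of the 10 (31.9% of genes) and below it for 3 (25.3% of genes). Gpi1 (0.23), Pfkp (1.75), Tpi1 (0.47), Gapdh (-0.37), Pgk1 (0.18) and Ldha (0.57) kept the sign of their log2 fold changes. The median log2 fold change was then 0.35 over the 10 mRNAs and 0.06 over all genes. In the GC-corrected fit of only the Ctrl and cKO embryos, 6 mRNAs were called higher (27.7% of genes) and 3 lower (20.7% of genes), with Pgk1 the 1 not called.

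The comparison of dcKO with Ctrl asked what differs when p53 is removed as well. Hk2 was the 1 mRNA of the 10 for which all 3 dcKO embryos lay on the same side of all 3 Ctrl embryos, at 58.7, 68.9 and 66.7 CPM. Separation below Ctrl was found in 11.2% of tested genes, and 0 of the 10 were separated above it, against 15.6% of genes. The log2 fold change of Hk2 was -0.71 (SE 0.15, edgeR adjusted p = 0.0502, DESeq2 adjusted p = 4.01e-04), close to its value in cKO, with which it shares the controls. In edgeR's model of all embryos 0 of the 10 passed, as did 0% of all genes in either direction. At an unadjusted p under 0.05 edgeR again had Pfkp higher (18% of genes) and Hk2 lower (11.2% of genes), and DESeq2 called Pfkp higher (10.3% of genes) and Hk2 lower (7.41% of genes). The median log2 fold change was 0.14 over the 10 mRNAs and 0.11 over all genes. In the fit of only the Ctrl and dcKO embryos edgeR called 0 of the 10 and 0% of genes, whereas limma with sample quality weights called 5 of the 10, beside 26.5% of genes higher and 26.2% lower.

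Pfkp was at 26.4, 4.57 and 33.6 CPM in dcKO replicates 1, 2 and 3. Replicates 1 and 3 were above the range of cKO, and replicate 2, which kept the most Cnot3 and Trp53 mRNA, was within the Ctrl range. The log2 fold change was 1.67 (SE 0.58, edgeR adjusted p = 0.0994, DESeq2 adjusted p = 0.0262). Without dcKO replicate 3 it was 1.20 (edgeR adjusted p = 0.0960), or 1.02 (edgeR adjusted p = 0.238) with the GC correction. Without dcKO replicate 2 it was 2.15 (edgeR adjusted p = 0.00455). In this last fit Hk2 was also called, at -0.75 (edgeR adjusted p = 0.0110), beside 12% of genes called higher and 6.07% lower.

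Most of the other mRNAs differed widely among the dcKO embryos. Gapdh was at 1503, 1499 and 5008 CPM in dcKO replicates 1, 2 and 3, and Pkm at 1053, 1218 and 3170 CPM. Replicates 1 and 2 were thus far below Ctrl, whereas replicate 3 was at the level of Ctrl for Pkm and slightly above it for Gapdh. Aldoa was at 338, 197 and 904 CPM, Gpi1 at 366, 278 and 829 CPM, and Tpi1 at 946, 531 and 1712 CPM. For these 3 mRNAs replicate 3 was above every Ctrl embryo and replicate 2 below every Ctrl embryo. Hk1 was at 66.8, 46.8 and 106 CPM and Ldha at 1583, 1039 and 2306 CPM, again highest in replicate 3 and lowest in replicate 2. Pgk1, at 1452, 1513 and 1277 CPM, showed the reverse order and a narrow range.

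Within dcKO the median SD of log2 CPM was 0.83 over the 10 mRNAs and 0.54 over all tested genes. Within Ctrl it was 0.07 and 0.16, and within cKO 0.13 and 0.16. Pfkp (0.49) and Pgk1 (0.21) lay above the all-gene median in Ctrl, and Hk2 (0.12) and Pgk1 (0.13) lay below it in dcKO. Leaving out dcKO replicate 3 gave log2 fold changes against Ctrl of -1.64 for Gapdh (edgeR adjusted p = 2.89e-04), -1.48 for Pkm (edgeR adjusted p = 2.89e-04), -0.76 for Gpi1 (edgeR adjusted p = 0.00271), -0.71 for Aldoa (edgeR adjusted p = 0.0232) and -0.73 for Hk2 (edgeR adjusted p = 0.00193). These 5 mRNAs were then called lower, beside 23.7% of all genes, and 0 of the 10 were called higher, beside 25.5% of genes. Without dcKO replicate 2 instead, Gapdh was at -0.52 (edgeR adjusted p = 0.392) and Pkm at -0.59 (edgeR adjusted p = 0.298). In the same fit Gpi1 was at 0.14 (edgeR adjusted p = 0.769), Aldoa at 0.51 (edgeR adjusted p = 0.321) and Hk2 at -0.75 (edgeR adjusted p = 0.011). With the GC correction and without dcKO replicate 3, Gapdh was at -1.25 (edgeR adjusted p = 8.42e-04) and Pkm at -0.29 (edgeR adjusted p = 0.216), with 7.17% of genes called lower and 7.01% higher. In that fit Hk1 was called higher (0.87, edgeR adjusted p = 0.00705) and Hk2 lower (-0.44, edgeR adjusted p = 0.0477), and Aldoa was at 0.37 (edgeR adjusted p = 0.211).

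**Figure D2:**
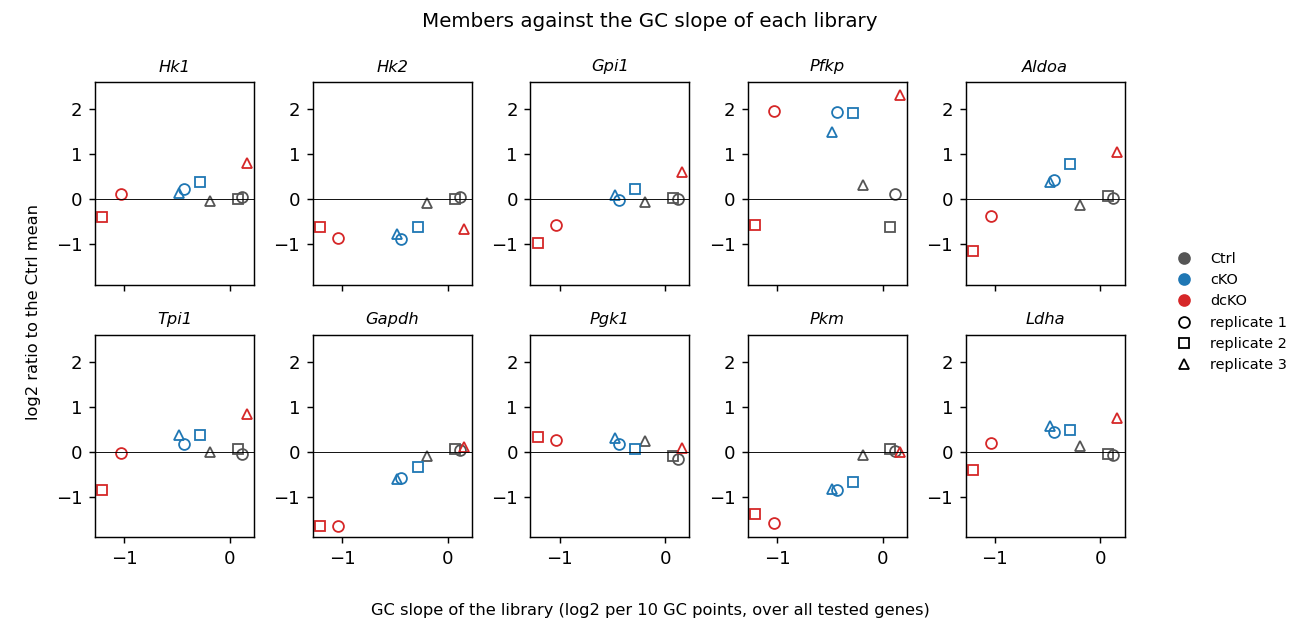
Log2 ratio to the Ctrl mean of each mRNA (vertical) against the GC slope of the library it was measured in (horizontal, log2 per 10 GC points over all tested genes), 1 point per embryo. Gapdh and Pkm are lowest in dcKO replicates 1 and 2, whose slopes are -1.03 and -1.21, and are at the Ctrl level in dcKO replicate 3, whose slope is 0.16, whereas Hk2 is low in all mutants.

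The spread of the dcKO embryos went along with their GC slopes for several of these mRNAs but not for all. The log2 ratio of dcKO replicate 3 to the mean of replicates 1 and 2 was 1.49 for Pkm (GC content 57.7%), 1.81 for Aldoa (56.9%) and 1.74 for Gapdh (52.6%). It was 0.93 for Hk1 (56.4%), 1.38 for Gpi1 (52.1%), 0.07 for Hk2 (51.9%) and -0.22 for Pgk1 (49.7%), but 1.61 for Pfkp (48.0%), the least GC-rich of the 10. Pearson's r of this ratio with GC content was 0.35 across the 10 mRNAs and 0.75 across 13561 genes, a description over genes of the same 3 libraries. The part of GC content in these differences was not tested. After the correction, 7 of the 10 log2 fold changes in dcKO were above 0, and Hk1 rose by 0.83 (SE 0.15, edgeR adjusted p = 0.0382), as did 3.58% of genes. All 3 dcKO embryos were then above Ctrl for Hk1, as for 16.6% of genes. Hk2 was at -0.47 (SE 0.14, edgeR adjusted p = 0.0701, with 0.996% of genes called lower), still with all dcKO embryos below Ctrl, as for 9.33% of genes, and Pkm was at -0.20 (SE 0.15). The remaining corrected values in dcKO were 0.01 for Gpi1, 1.62 for Pfkp, 0.60 for Aldoa, 0.37 for Tpi1, -0.66 for Gapdh, 0.24 for Pgk1 and 0.40 for Ldha, and edgeR called 0 of these 7.

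**Figure D3:**
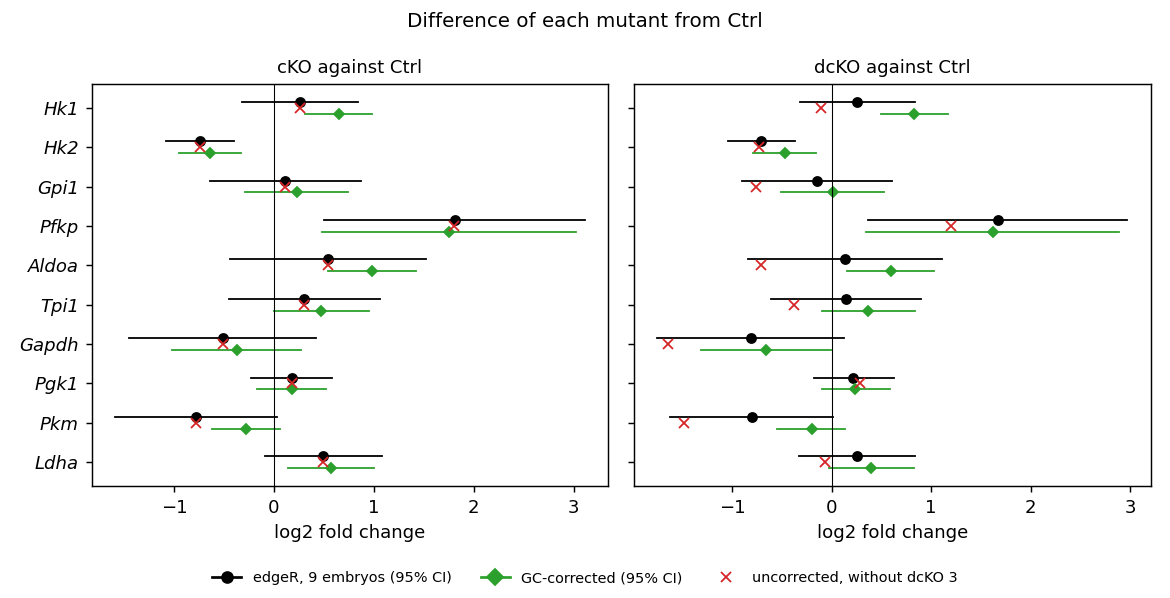
Log2 fold changes of cKO (left) and dcKO (right) against Ctrl from edgeR's model of 9 embryos, uncorrected (circles) and GC-corrected (diamonds), with 95% confidence intervals. Crosses are the uncorrected values without dcKO replicate 3, which lower Gapdh in dcKO from -0.81 to -1.64 and leave Hk2 at -0.73. Values without dcKO replicate 2 are not drawn, and there Gapdh was at -0.52 in dcKO.

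The samples also differed in cells other than neural ones. The 10 erythroid markers summed to 4641 to 6719 CPM in dcKO, below the 8109 to 11850 CPM of Ctrl and the 9561 to 14500 CPM of cKO. The 7 endothelial markers summed to 140 to 146 CPM in dcKO against 226 to 306 CPM in Ctrl and 210 to 299 CPM in cKO. Meningeal and pericyte markers (9 genes) summed to 887 to 960 CPM in Ctrl, 503 to 774 CPM in cKO and 363 to 560 CPM in dcKO. Their median log2 fold change was 0 in cKO and -0.56 in dcKO. DESeq2 called 0 of the 9 lower in cKO (7.08% of genes) and 4 in dcKO (7.41%). In cKO Col1a1 (-1.28), Col1a2 (-0.64), Col3a1 (-0.56) and Pdgfrb (-0.34) were below 0. Dcn (0), Lum (0.19), Pdgfra (0.11), Foxc1 (0.32) and Rgs5 (0.09) were not. Microglial markers (8 genes) summed to 41.1 to 51.4 CPM in Ctrl, 40.9 to 91.1 in cKO and 14.3 to 35.5 in dcKO. All listed markers had a read in at least 1 embryo. Their part in the values of the glycolytic mRNAs, which these cells also express, was not tested. In whole tissue, fewer cells of a type and less RNA per cell cannot be told apart.

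Compared with each other, the mutants did not differ in any of the 10 mRNAs beyond the spread between embryos. In edgeR's model of 9 embryos 0 of the 10 passed, against 0.0146% of genes called lower and 0% higher. At an unadjusted p under 0.05 edgeR also had 0 of the 10 (2.05% of genes higher, 2.38% lower), and DESeq2 called 0 (0.0293% higher, 0.403% lower). Embryos were separated for 0 of the 10, against 2.62% of genes higher and 3.63% lower. After the GC correction edgeR called 0 of the 10 (0.0664% of genes lower), and Aldoa was separated below cKO (5.26% of genes, with 3.97% above). The log2 fold changes ran from -0.41 for Aldoa (95% CI -1.39 to 0.57) to 0.05 for Pgk1 (95% CI -0.36 to 0.45). For Hk2 the interval was -0.30 to 0.37 around 0.03, and for Pfkp -1.39 to 1.12 around -0.13, so differences of that size could not be seen. Without dcKO replicate 3, 6 of the 10 were called lower in dcKO than in cKO (13.1% of genes) and 0 higher (13.5%). These were Gapdh at -1.13, Aldoa at -1.25, Gpi1 at -0.87, Pkm at -0.70, Tpi1 at -0.68 and Ldha at -0.56, with edgeR adjusted p-values of 0.0114 to 0.0468. With the GC correction as well, Gapdh alone of the 10 was called, at -0.86 (edgeR adjusted p = 0.0339), beside 0.583% of genes lower and 0.354% higher. In the uncorrected fit without dcKO replicate 2 instead, Gapdh was at -0.01, Aldoa at -0.04 and Gpi1 at 0.02. There Pkm was at 0.19, Tpi1 at 0.17 and Ldha at 0.01, and the edgeR adjusted p-value of each was 0.999.

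The mix of isozymes at a step does not depend on how libraries are scaled, so shares of reads per kb of exon were computed in each embryo. Hk1 made up 28.7%, 28.5% and 29.2% of Hk1 plus Hk2 in Ctrl and 46.5%, 44.8% and 43.0% in cKO. In dcKO it was 44.3%, 32.2% and 52.7%, with replicate 2 nearest to Ctrl but still above it. Pfkp was a minor phosphofructokinase mRNA throughout, with 0.818% ± 0.336 (SD, n = 3) of Pfkp, Pfkl and Pfkm in Ctrl, against 2.72% ± 0.574 for cKO and 2.81% ± 1.84 for dcKO. Per kb of the longest coding transcript the share was larger, at 1.09% to 2.55% in Ctrl, 4.84% to 7.17% in cKO and 3.10% to 10.4% in dcKO. Pfkl, the liver-type enzyme, and Pfkm, the muscle-type enzyme, were at 234 ± 54.3 and 92.1 ± 3.13 CPM in Ctrl.

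Aldoa made up 69.7%, 74.1% and 79.9% of Aldoa plus Aldoc in Ctrl, 89.7%, 94.2% and 93.9% in cKO and 84.5%, 88.4% and 86.3% in dcKO. The dcKO embryos lay between the other genotypes without overlap. Aldoc, the brain-type aldolase that also marks radial glia, was at 220, 179 and 113 CPM in Ctrl and at 75.5, 51.9 and 41.2 CPM in cKO. Its log2 fold change in cKO was -1.60 (SE 0.52, edgeR adjusted p = 0.0917, DESeq2 adjusted p = 0.0161). In dcKO it was at 69.7, 28.9 and 160.4 CPM, with replicate 3 within the Ctrl range, and a log2 fold change of -0.98 (SE 0.52, DESeq2 adjusted p = 0.145). Leaving out 1 embryo at a time moved this log2 fold change between -1.79 and -0.57 in edgeR. Ldha made up 73.3% ± 0.815 of Ldha plus Ldhb in Ctrl, 81.1% ± 1.49 in cKO and 79.9% ± 4.72 in dcKO.

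Every embryo of either mutant was above every Ctrl embryo in all 4 uncorrected shares. How often other ratios of genes separate was not computed, and single genes separated above Ctrl in 29.2% (cKO) and 15.6% (dcKO) of tested genes. The separation gave the smallest possible p = 0.1 in an exact two-sided permutation test (0.133 after adjustment over 12 tests). The difference from Ctrl was 16.0 percentage points in cKO and 14.3 in dcKO for Hk1, 18.0 and 11.8 for Aldoa, 7.77 and 6.56 for Ldha, and 1.90 and 2.00 for Pfkp. In dcKO it ran from 0.956 (without dcKO replicate 1) to 2.71 (without dcKO replicate 2) for Pfkp and from 9.46 (without dcKO replicate 3) to 19.7 (without dcKO replicate 2) for Hk1 when 1 embryo was left out. Between dcKO and cKO the shares differed by -6.21 points for Aldoa (exact p = 0.1, adjusted 0.133). For Hk1, Pfkp and Ldha this contrast gave exact p-values of 0.8 to 1. Isozymes differ in GC content, and the shares were not corrected for it. In dcKO replicate 2 the GC-corrected log2 ratios to the Ctrl mean were -0.08 for Ldha and 0.06 for Ldhb. They were -0.63 for Pfkp, -0.55 for Pfkl and -0.16 for Pfkm in that embryo. Hk1 (0.72) stayed above Hk2 (-0.22) and Aldoa (0.05) above Aldoc (-2.12). Separation of the Ldha and Pfkp shares was thus not shown to hold after the correction.

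**Figure D4:**
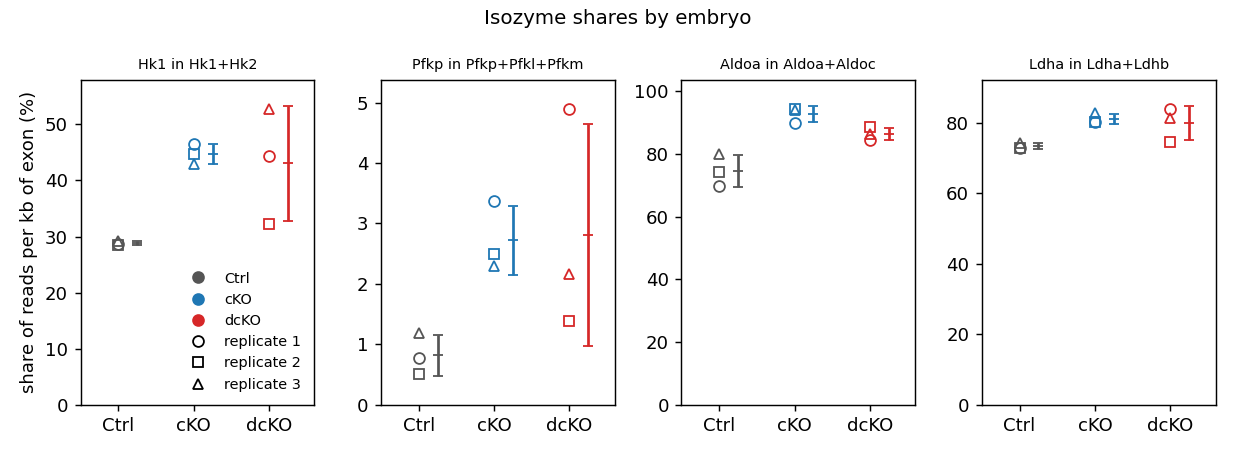
Share of reads per kb of exon taken by Hk1, Pfkp, Aldoa and Ldha among the isozymes of their step in each embryo, in percent from 0. Symbols are embryos and bars the mean ± SD of 3. In all 4 panels the 6 mutant embryos lie above the 3 Ctrl embryos, without a correction for GC content.

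The remaining steps between glycerate and pyruvate were in the list of other glycolytic isozymes and steps, of which 10 of 18 genes were tested. In edgeR's 9-embryo model 0 of them passed an adjusted p-value of 0.05 in either mutant, and at an unadjusted p under 0.05 it had 2 lower in cKO (11.7% of all tested genes) and 0 in dcKO (11.2%). In cKO DESeq2 called 2 of the 10 lower (7.08% of all tested genes), Aldoc and Pgam1, and 0 higher, and in dcKO it called 0. Pgam1, the phosphoglycerate mutase, was at 859, 824 and 835 CPM in Ctrl and at 530, 553 and 602 CPM in cKO, a log2 fold change of -0.58 (SE 0.19, edgeR adjusted p = 0.0915). In dcKO it was at 558, 870 and 663 CPM, with replicate 2 above all Ctrl embryos and the others below them. Eno1, the main enolase, was at 1794 ± 183 CPM in Ctrl, 1519 ± 161 in cKO and 1338 ± 990 in dcKO (SD, n = 3), and reads on its copy Eno1b were up to 26.4% of its own. Eno2, the neuronal enolase, was at 4.33 ± 1.62 CPM in Ctrl.

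Glucose and lactate transporters were followed as a list of 14 genes, 13 of them tested. By edgeR 0 passed in either mutant, with 2 of 13 higher in cKO (15.3% of all tested genes) and 3 of 13 in dcKO (18%) at an unadjusted p under 0.05. DESeq2 called Slc2a3 higher in cKO (9.61% of all tested genes), and in dcKO (10.3%) Slc2a3, Slc2a13 (a myo-inositol transporter, at 0.76) and Emb (a partner of lactate transporters, at 0.82). With the GC correction both of the last were at 0.52 and not called. That fit called Slc2a3 (1.19) and Slc2a6 (1.84) higher (8.13% of genes) and Slc16a1 (-0.62) lower (3.74% of genes) in cKO. In dcKO it called Slc2a6 (1.64) higher (3.58% of genes). Slc2a3, the high-affinity transporter GLUT3, was at 23.2, 30.2 and 28.5 CPM in Ctrl, at 52.2, 75.0 and 70.6 CPM in cKO and at 85.3, 32.8 and 64.1 CPM in dcKO. All 6 mutant embryos were above Ctrl, dcKO replicate 2 by the least. Its log2 fold change was 1.27 in cKO (SE 0.32, edgeR adjusted p = 0.0554) and 1.16 in dcKO (SE 0.32, edgeR adjusted p = 0.0607). Slc2a1 (GLUT1), also a marker of brain endothelium, was at 169 ± 15 CPM in Ctrl, 137 ± 23.7 in cKO and 130.5 ± 105 in dcKO. Slc16a1, a lactate transporter, was at 109 ± 7.53 CPM in Ctrl, 80.0 ± 16.3 in cKO and 110.4 ± 37.6 in dcKO.

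Of 13 regulators of glycolytic flux 12 were tested, and edgeR called 0, with 4 higher in either mutant (15.3% of all tested genes in cKO, 18% in dcKO) and 1 lower in cKO (11.7%) at an unadjusted p under 0.05. DESeq2, with 9.61% of genes higher and 7.08% lower in cKO and 10.3% higher in dcKO, called 2 higher (Pfkfb1 and Pdk1) and 1 lower (Mycn) in cKO and 1 higher (Pdk1) in dcKO. Pdk1, the kinase that turns off pyruvate dehydrogenase, was at 98.0, 80.8 and 84.4 CPM in Ctrl. It was at 148, 147 and 159 CPM in cKO and at 171, 129 and 147 CPM in dcKO, with all mutant embryos above Ctrl. The log2 fold change was 0.79 in cKO (SE 0.16, edgeR adjusted p = 0.0509) and 0.77 in dcKO (SE 0.16, edgeR adjusted p = 0.0502). In cKO Pfkfb1, which makes and removes the activator of phosphofructokinase, was at 1.05 (SE 0.33, edgeR adjusted p = 0.0856) and Mycn, a MYC-family factor of progenitors, at -0.96 (SE 0.25, edgeR adjusted p = 0.0578). With the GC correction they were at 0.93 (edgeR adjusted p = 0.0769) and -0.69 (edgeR adjusted p = 0.154). Pdk1 was then at 0.68 in cKO (edgeR adjusted p = 0.0293, beside 8.13% of genes called higher) and 0.59 in dcKO (edgeR adjusted p = 0.0523). Hif1a, the oxygen-regulated HIF subunit, was at 0.37 in cKO (SE 0.24) and 0.72 in dcKO (SE 0.24, edgeR adjusted p = 0.0919). Its level in dcKO replicate 3 (177.6 CPM) was within the Ctrl range of 154 to 196 CPM, and the GC-corrected values were 0.20 and 0.27. Tigar, a p53 target that lowers the same activator, was at 22.8 ± 2.03 CPM in Ctrl, 22.6 ± 1.55 in cKO and 18.2 ± 3.11 in dcKO.

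HIF targets outside glycolysis, a list of 16 genes of which 15 were tested, had a median log2 fold change of 0.70 in cKO and 0.68 in dcKO. By edgeR 0 passed, with 8 higher and 2 lower in cKO and 9 higher and 1 lower in dcKO at an unadjusted p under 0.05. The shares over all tested genes were 15.3% and 11.7% in cKO, against 18% and 11.2% for dcKO. DESeq2, with 9.61% of all genes higher and 7.08% lower in cKO and 10.3% and 7.41% in dcKO, called 6 higher (Bnip3, Bnip3l, Ndrg1, Ddit4, P4ha1 and Mxi1) and 1 lower (Egln1, the HIF prolyl hydroxylase PHD2, at -0.73) in cKO. In dcKO it called the same 6 and also Kdm3a and Ero1a higher, and 0 lower. Bnip3, a mitophagy receptor, was at 1.97 in cKO (SE 0.33, edgeR adjusted p = 0.0509, DESeq2 adjusted p = 7.08e-06) and at 2.10 in dcKO (SE 0.33, edgeR adjusted p = 0.0502, DESeq2 adjusted p = 2.49e-06). Ndrg1, a stress-responsive gene, was at 2.54 in cKO (SE 0.54, edgeR adjusted p = 0.0509) and 1.94 in dcKO (SE 0.53, edgeR adjusted p = 0.0598). Vegfa, the vascular growth factor and a much-used HIF target, was at -0.34 in cKO and -0.33 in dcKO (SE 0.30 each). Leaving out 1 embryo at a time moved the value in dcKO between -0.65 without dcKO replicate 3 and -0.06 without dcKO replicate 1 in edgeR. After the GC correction edgeR called 5 of the 15 higher in cKO (8.13% of all genes) and 4 in dcKO (3.58%), Bnip3 and Ndrg1 among them in both, and 0 lower. Egln1 was then at -0.37 in cKO (edgeR adjusted p = 0.407) and at 0.26 in dcKO, where its uncorrected value was -0.46.

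**Figure D5:**
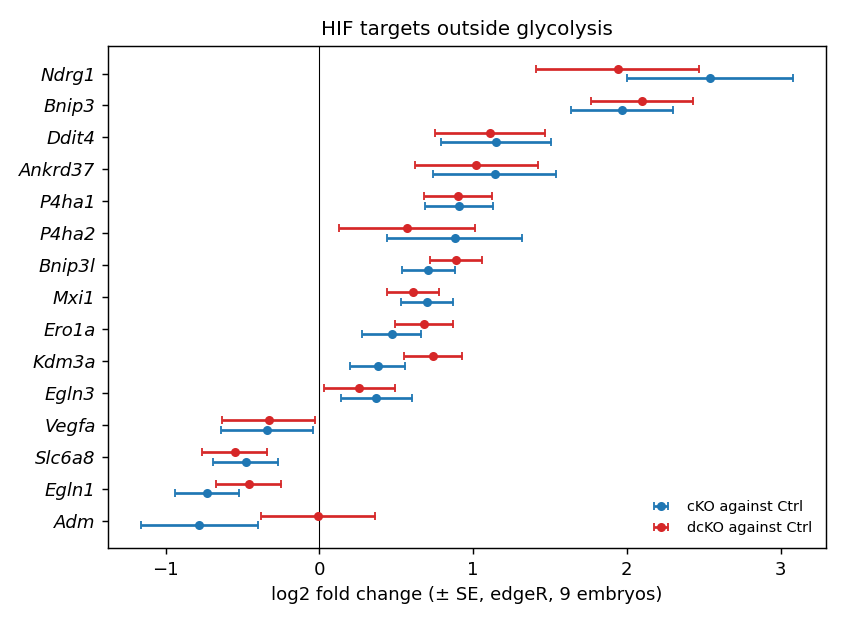
Log2 fold changes against Ctrl of the 15 tested HIF targets outside glycolysis (horizontal, ± SE from edgeR's model of 9 embryos) in cKO and dcKO, which share the Ctrl embryos. Ndrg1 and Bnip3 lie highest and Vegfa is below 0 in both.

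Neighbouring pathways are read against the same shares over all tested genes, 15.3% higher and 11.7% lower in cKO and 18% and 11.2% in dcKO at an unadjusted p under 0.05 in edgeR, and 9.61%, 7.08%, 10.3% and 7.41% by DESeq2. Of 7 pentose phosphate genes DESeq2 called 1 lower in cKO, Tkt (transketolase), at -1.30 (SE 0.49, edgeR adjusted p = 0.127, DESeq2 adjusted p = 0.0421), and 0 in dcKO, where Tkt was at -1.14 (SE 0.49). Without dcKO replicate 3 edgeR called Tkt lower in dcKO, at -2.15, and without dcKO replicate 1 it was at -0.78. By edgeR 0 of the 7 passed, with 2 lower in either mutant at an unadjusted p under 0.05. The median of the 7 was -0.47 in cKO and -0.45 in dcKO. Of 24 genes for pyruvate entry and the TCA cycle edgeR called 0, with 6 higher and 1 lower in cKO and 9 higher and 5 lower in dcKO at an unadjusted p under 0.05, and a median of 0.16 in both. DESeq2 called Fh1 (fumarase, 0.54) higher in cKO. In dcKO it called Dld (dihydrolipoamide dehydrogenase, 0.73, or 0.31 with the GC correction) higher, and its lower calls included Cs (citrate synthase, -0.53) and Mdh2 (malate dehydrogenase, -0.83). GC-corrected edgeR called 0 of the 24 in either mutant. Of 7 gluconeogenic genes 3 were tested and 0 were called by either tool or at an unadjusted p under 0.05.

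The genes whose levels over the 9 embryos were most like the mean profile of the 10 mRNAs were Taf6, Thtpa, Mapk3, Acsf3 and Dhrs7b, with Pearson's r of 0.989 to 0.993. The profile was highest in dcKO replicate 3 (0.58 on the log2 scale, centred over embryos) and lowest in dcKO replicate 2 (-0.77), so these correlations rest largely on the spread within dcKO and are a description without a test.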

How the data were processed

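The authors trimmed adapters with cutadapt, aligned paired-end reads of stranded poly(A) libraries to mm39 with STAR and deposited the raw read counts per gene that featureCounts assigned. The deposited counts had no filter or normalization. The 13680 genes that exceeded 10 reads in all embryos were tested in R 4.3.3 with edgeR 4.0.16 (TMM factors, quasi-likelihood test, 1 model of 9 embryos, Benjamini-Hochberg adjustment over all genes). Calls used adjusted p-values under 0.05, with and without an absolute log2 fold change above 1. SE is the log2 fold change divided by the root of the F statistic. DESeq2 1.42.0 and limma 3.58.1 were alternatives. The GC correction entered a loess fit (span 0.3) as an offset, for 13561 genes with a GC value. GC content was that of the longest transcript of each gene. Gene lengths, GC content and coordinates came from GENCODE M21 (GRCm38), not the build of the alignment, and 52029 identifiers matched. Of 2 identifiers named Aldoa the one with more reads was used. Libraries are single embryos. Some embryo codes share a number across genotypes (2 pairs of Ctrl and cKO, 1 of Ctrl and dcKO), whose meaning the labels do not give. The procedure was tested on simulated data. The genes and lists were chosen with earlier results of these data known. Named were all 10 members, fixed pathway genes, isozymes, genes called in a list (here by DESeq2, a use set after edgeR called none) and each list's largest rise and fall. Replicate numbers did not pair embryos (mean correlation of deviations 0.0333 between Ctrl and cKO, -0.359 between Ctrl and dcKO).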

Additional observations from a re-analysis of the deposited data

How the results depend on the processing

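The 10 mRNAs passed an adjusted p-value of 0.05 in differing numbers, and the cause was not tested beyond what each setting changes. In cKO against Ctrl the count was 0 with RLE factors or filterByExpr, 1 with upper-quartile factors, 2 without a filter on reads, 2 by DESeq2, 9 by limma with quality weights, 8 when only the 6 embryos compared were fitted, 3 with the GC correction, 9 with that correction on the 6 embryos, and 2 when edgeR's threshold was 0.1. With a log2 fold change above 1 as well, it was 1 without a filter, by DESeq2, by limma and on the 6 embryos with or without the GC correction. In dcKO against Ctrl the count was 1 without a filter, 2 by DESeq2, 5 by limma, 1 with the GC correction and 2 at 0.1, and with the fold threshold 1 by DESeq2 and 3 by limma. Separated from Ctrl in dcKO were 2 mRNAs without a filter or with the GC correction, and 1 was separated from cKO with that correction. The settings DESeq2 without single embryos, the GC correction on 6 embryos or without single embryos, the threshold of 0.1 and the coding transcript length were chosen after seeing the data.

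With the replicate number as a block (replicate block), 0 of the 10 passed in any comparison, Aldoa was at -0.03 in dcKO against Ctrl and Hk1 at -0.05 in dcKO against cKO. Replicate numbers did not pair embryos.

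Some directions turned. In dcKO against cKO, Hk1 was at -0.02 with RLE factors and by DESeq2, -0.07 with upper-quartile factors, -0.01 with filterByExpr, -0.03 without a filter and -0.12 by limma. Hk2 was at -0.06 with upper-quartile factors, 0 without a filter and -0.03 by limma, and Pgk1 at -0.05 with upper-quartile factors. Pkm was at 0.08 with the GC correction, 0.07 with the block as well and 0.09 on 6 embryos. In dcKO against Ctrl, limma gave -0.35 for Aldoa and -0.04 for Tpi1. The GC correction gave 0.01 for Gpi1. With it alone, with the block or on 6 embryos, Eno1 was at 0.11, 0.10 and 0.07 (0.25, 0.25 and 0.26 in cKO), Pgam1 at 0.06, 0.02 and 0, and Mycn at 0.11, 0.04 and 0.05. Some embryos share a number in their codes. Within the 2 such pairs of Ctrl and cKO embryos the mean difference kept the direction of the fit for all 10 mRNAs. In the 1 such pair of Ctrl and dcKO embryos (replicate 3 of each) the direction of the fit held for 6 of the 10 mRNAs (Hk1, Hk2, Pfkp, Aldoa, Tpi1 and Ldha) and turned for the other 4 and for 6 further genes, some of them far from 0 in the fit. The turned differences were 0.66 for Gpi1, 0.19 for Gapdh, -0.15 for Pgk1, 0.07 for Pkm, 0.64 for Eno1, 0.50 for Aldoc, 0.72 for Slc2a1, -0.14 for Hif1a, 0.34 for Vegfa and 0.31 for Tkt.

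Leaving out 1 embryo at a time, over edgeR, DESeq2 and GC-corrected edgeR, gave 0 to 6 of the 10 passing in each comparison. With the fold threshold this was 0 to 1 in cKO, 0 to 2 in dcKO and 0 to 2 between the mutants. In edgeR 0 passed against Ctrl without any Ctrl or cKO embryo. Separation held for 1 to 6 mRNAs between dcKO and Ctrl and 0 to 7 between the mutants. Log2 fold changes in dcKO against Ctrl ran from -0.13 to 0.92 for Hk1, -0.78 to 0.22 for Gpi1, -0.73 to 0.81 for Aldoa, -0.40 to 0.60 for Tpi1, -0.09 to 0.59 for Ldha, 1.02 to 2.15 for Pfkp, -0.50 to 0.18 for Pgam1, -1.24 to 0.23 for Eno1, -0.77 to 0.33 for Mycn, -1.29 to 0.04 for Slc2a1, -0.67 to -0.04 for Vegfa and -2.18 to -0.72 for Tkt. By limma with quality weights all 13 genes outside the 10 that were followed over the settings were called in dcKO. That fit called 26.5% of all tested genes higher and 26.2% lower. Of the 13 genes, Pgam1, Eno1, Aldoc, Slc2a1, Mycn, Vegfa and Tkt were lower and the others higher. Eno1 ran from -0.34 to 0.29 in cKO. Between the mutants they ran from -0.37 to 0.24 for Hk1, -0.05 to 0.22 for Hk2, -0.87 to 0.02 for Gpi1, -0.71 to 0.36 for Pfkp, -0.68 to 0.17 for Tpi1, -0.03 to 0.12 for Pgk1, -0.70 to 0.25 for Pkm and -0.56 to 0.01 for Ldha. Isozyme shares between the mutants ran from -6.51 to 3.75 percentage points for Hk1, -0.948 to 0.803 for Pfkp and -3.15 to 1.42 for Ldha. No isozyme share changed direction against Ctrl in any of these fits, without division by length or with the coding transcript length. None of these settings corrected the shares for GC content. Precision is limited by the 3 embryos of each genotype, and Pfkp had the lowest counts of the 10 mRNAs.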
